A study of Homo sapiens with 4 samples.

Results

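The genes described are 10 that encode ligands, feedback inhibitors and direct targets of bone morphogenetic protein (BMP) signalling. They are the inhibitors of DNA binding ID1, ID2, ID3 and ID4, the ligands BMP2, BMP4 and BMP7, the inhibitory SMADs SMAD6 and SMAD7, and the secreted antagonist noggin (NOG). They were chosen by name, with earlier results of these data known. Their probes were found through the RefSeq accession of each spot, which gave 13 probes of 1 spot each, among 41000 probes and 17721 genes with a symbol. ID2 had 2 probes, BMP7 had 3, and each other gene had 1.

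RNA came from OVSAYO cells, a cell line from an ovarian clear cell carcinoma (CCC), and was hybridised in 1 colour to 4 Agilent arrays on 1 slide, 1 array per condition. Cells received either a negative control siRNA (NS-si, here also control cells) or an Sp1 siRNA (Sp1-si, here also Sp1-silenced cells) and were cultured for 40 h according to the labels, while a figure legend of the study gives a shorter culture. Cells of both kinds were then either left without CoCl2 or kept for 4 h in 0.5 mM CoCl2, a hypoxia-mimicking agent (NS-si → CoCl2 and Sp1-si → CoCl2). The labels call the Sp1 siRNA a pool, whereas the study's methods describe individual siRNAs. No condition had a second array, so no test between conditions was possible, and every ratio below compares 1 array with 1 other. The error given with a ratio is the SD between spots, taken as the median over the 53 probes with 10 spots whose signal was most alike. It covers the spotting and scanning of an array and not the spread between cultures, which was not measured.

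BMPs are secreted dimers that bind type I and type II serine/threonine kinase receptors, which phosphorylate SMAD1, SMAD5 and SMAD9. These enter the nucleus with SMAD4 and switch on target genes, of which the ID genes are among the most direct. ID proteins have a helix-loop-helix domain but no DNA-binding region, and they hold E proteins in pairs that cannot bind DNA, which keeps cells proliferating and undifferentiated. SMAD6 and SMAD7 are themselves induced by the pathway and block it at the receptors, and noggin traps BMP ligands outside the cell.

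Promoters are shown for the ID genes because these moved together, and for the inhibitory SMADs because they moved the other way. The windows are the 250 bases upstream of the annotated start, from RefSeq on GRCh38.p14, written 5′ to 3′ on the strand of the gene. Capitals mark the GC box GGGCGG or its complement CCGCCC, letters that Sp1 is known to bind.
ID1, chr20:31605039-31605288, plus strand: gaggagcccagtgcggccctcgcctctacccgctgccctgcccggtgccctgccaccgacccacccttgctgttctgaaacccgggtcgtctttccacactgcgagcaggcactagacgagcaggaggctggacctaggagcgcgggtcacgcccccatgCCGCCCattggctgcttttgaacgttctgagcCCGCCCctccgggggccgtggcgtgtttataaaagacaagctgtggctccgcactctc
ID2, chr2:8681806-8682055, plus strand: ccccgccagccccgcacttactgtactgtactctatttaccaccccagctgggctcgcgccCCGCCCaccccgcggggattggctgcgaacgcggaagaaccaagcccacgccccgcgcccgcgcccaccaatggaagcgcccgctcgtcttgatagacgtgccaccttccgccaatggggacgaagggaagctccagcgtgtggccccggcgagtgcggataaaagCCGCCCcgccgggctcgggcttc
ID3, chr1:23559502-23559751, minus strand: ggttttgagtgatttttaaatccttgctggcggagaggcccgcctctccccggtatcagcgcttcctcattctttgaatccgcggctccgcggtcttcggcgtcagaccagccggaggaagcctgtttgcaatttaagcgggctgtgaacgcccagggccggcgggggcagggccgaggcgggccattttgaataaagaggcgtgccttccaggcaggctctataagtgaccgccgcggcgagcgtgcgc
ID4, chr6:19837120-19837369, plus strand: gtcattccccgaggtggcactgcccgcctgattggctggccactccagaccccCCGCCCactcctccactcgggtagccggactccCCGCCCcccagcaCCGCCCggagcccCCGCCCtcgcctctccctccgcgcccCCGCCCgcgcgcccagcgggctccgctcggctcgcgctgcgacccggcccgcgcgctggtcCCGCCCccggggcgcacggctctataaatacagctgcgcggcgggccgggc
SMAD6, chr15:66701986-66702235, plus strand: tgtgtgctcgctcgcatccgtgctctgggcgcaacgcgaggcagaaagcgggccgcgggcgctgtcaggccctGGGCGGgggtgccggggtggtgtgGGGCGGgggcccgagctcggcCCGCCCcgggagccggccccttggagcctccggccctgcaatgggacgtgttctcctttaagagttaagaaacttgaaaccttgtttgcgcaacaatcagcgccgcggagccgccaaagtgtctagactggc
SMAD7, first of 3 annotated starts, chr18:48950966-48951215, minus strand: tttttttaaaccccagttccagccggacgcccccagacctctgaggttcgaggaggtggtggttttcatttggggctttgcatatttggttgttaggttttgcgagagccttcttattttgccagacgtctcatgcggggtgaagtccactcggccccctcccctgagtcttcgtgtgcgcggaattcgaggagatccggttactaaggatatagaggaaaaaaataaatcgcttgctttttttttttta
The GC box occurred 6 times in the window of ID4, 3 times in that of SMAD6, and 2 times each in those of ID1 and ID2. It did not occur in the windows of ID3 or SMAD7. Of 35116 promoters of this length, 42.6% held it on either strand. The hypoxia response cores ACGTG and GCGTG, also read on both strands, were between them in 43.2% of all promoters. They occurred in the windows of ID1, ID2, ID3 and SMAD6 and not in those of ID4 or of this SMAD7 start. The palindrome GGCGCC, known from BMP response elements, was in 16.4% of promoters and in none of these 6. Windows were present for 7 members, with 3 starts for BMP4. BMP2, BMP7 and NOG had none. These matches describe letters and not binding, which was not measured here.

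The arrays had 33081 to 34542 spots well above background, a call made by the scanner software. The signal at the 75th percentile was 977 to 1285, lowest on the NS-si → CoCl2 array and highest on the Sp1-si → CoCl2 array. Signals are therefore given as deposited, and ratios after each array had been scaled to this percentile. The SP1 probe with 10 spots had signals of 553 without and 429 with CoCl2 in control cells, and of 39.2 and 38.7 in Sp1-silenced cells. The log2 ratio was -3.77 without and -3.87 with CoCl2. All 6 clear cell markers, among them NAPSA and PAX8, and all 6 epithelial markers were well above background on every array. Some of them were lower in Sp1-silenced cells, with log2 ratios without and with CoCl2 of -2.33 and -2.39 for NAPSA, -1.26 and -1.504 for TFPI2, and -1.55 and -1.73 for CDH1. Among markers of other cells, 2 of the 4 fibroblast genes measured, 3 of 5 leukocyte genes and 1 of 4 endothelial genes were so, while the defining genes COL3A1, PDGFRB, PTPRC, LYZ, PECAM1 and CDH5 were on none. Summed over each list, the fibroblast signal ranged from 369.6 (Sp1-si) to 802 (NS-si), the leukocyte signal from 403 (Sp1-si) to 547 (Sp1-si → CoCl2), and the endothelial signal from 48.0 (NS-si → CoCl2) to 68.1 (Sp1-si). The part of these differences in the results below was not tested.

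Of the 10 members, 8 were well above background on all 4 arrays, NOG was on 2 and BMP2 on none. No member spot was saturated. A gene with several probes was counted by its brightest. It was counted as past 2-fold at a log2 ratio of at least 1 in size with the brighter array well above background.

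**Figure D1:**
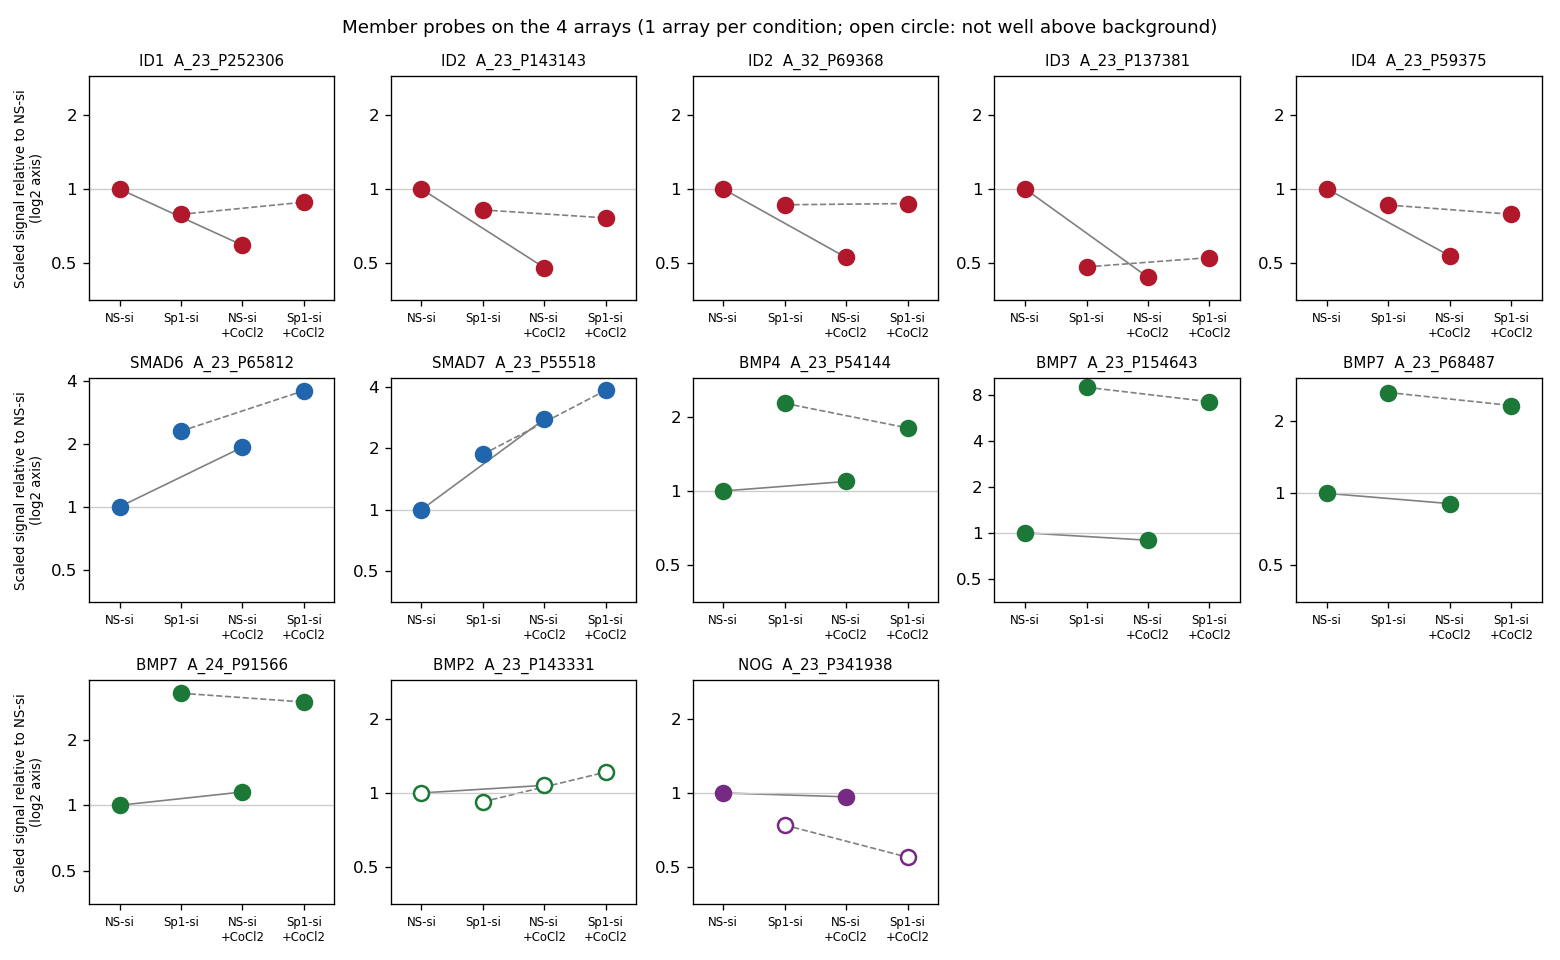
Signal of each member probe on the 4 arrays, scaled to the 75th percentile and divided by the NS-si value, on a log2 axis. Points are single arrays, solid lines join the NS-si arrays, dashed lines join the Sp1-si arrays, and open circles were not well above background. The 5 ID probes drop along the solid line and run almost level along the dashed one, SMAD6 and SMAD7 climb along both, and BMP4 and BMP7 sit higher on the Sp1-si arrays.

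In NS-si cells, CoCl2 was accompanied by lower signals of all 4 ID genes and higher signals of both inhibitory SMADs. In Sp1-si cells the SMADs were again higher with CoCl2, while the ID genes differed by at most 0.17 on the log2 scale. Without CoCl2, Sp1-si cells had more BMP7, BMP4, SMAD6 and SMAD7 signal than NS-si cells, and less ID3 signal.

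ID1, the ID family member best known as a BMP target, had signals of 41700 without and 21009 with CoCl2 in control cells, and 31640 without and 41443 with CoCl2 in Sp1-silenced cells. The lowest of the 4 values was that of NS-si → CoCl2 cells. The log2 CoCl2 ratio was -0.76 (spot SD 0.029) in NS-si cells, a 1.70-fold lower level, and 0.17 (spot SD 0.026) in Sp1-si cells. RNA of whole cultures was measured, so that fewer cells expressing a gene and less RNA per cell cannot be told apart here or below.

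ID2, which acts on the same E protein partners, was read by 2 probes. The brighter, A_32_P69368, had signals of 10503 without and 4713 with CoCl2 in control cells, and 8720 without and 10304.5 with CoCl2 in Sp1-silenced cells. The other, A_23_P143143, had 7002, 2855, 5538 and 6000 in the same order. Both probes were lowest in NS-si → CoCl2 cells, and the other 3 values lay closer together. Their log2 CoCl2 ratios were -0.93 and -1.07 in NS-si cells, and 0.02 and -0.11 in Sp1-si cells, with spot SDs of 0.027 to 0.029. The brighter probe fell short of the 2-fold limit in NS-si cells and the other passed it, so that the count for ID2 depends on the probe taken.

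ID3 had the largest CoCl2 ratio of the family. Its signals were 2605 without and 969 with CoCl2 in control cells, and 1204 without and 1535 with CoCl2 in Sp1-silenced cells. In contrast to the other ID genes, ID3 was high on the NS-si array alone. With CoCl2 it was 2.30-fold lower in NS-si cells (log2 ratio -1.20, spot SD 0.035) and had a log2 ratio of 0.13 in Sp1-si cells. Without CoCl2 it was 2.08-fold lower in Sp1-silenced than in control cells (log2 ratio -1.06, spot SD 0.030).

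ID4, often described as acting against the other family members, had signals of 4125 without and 1879 with CoCl2 in control cells, and 3416 without and 3658 with CoCl2 in Sp1-silenced cells. Again NS-si → CoCl2 cells had the lowest value. The log2 CoCl2 ratios were -0.91 in control and -0.13 in Sp1-silenced cells, each with a spot SD of 0.030.

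For the ID genes, the CoCl2 ratio in Sp1-si cells therefore lay above that in NS-si cells by 0.93 for ID1, 0.95 for ID2, 1.33 for ID3 and 0.78 for ID4 on the log2 scale, against spot SDs of 0.032 to 0.044. This difference passed 2-fold for ID3, while 0.994% of the 14280 genes well above background on all arrays did so in this direction and 2.86% in the other. At 1.5-fold all 4 ID genes passed, against 5.55% of genes. The 2 CoCl2 ratios share no array, but each shares its arrays with the comparisons of Sp1-si and NS-si cells. Without CoCl2, the log2 ratios of Sp1-silenced to control cells were -0.34 for ID1, -0.21 for ID2 and -0.22 for ID4, smaller in size than the 0.58, 0.73 and 0.57 found with CoCl2, where Sp1-si cells were higher. ID3 had 0.27 with CoCl2. Without scaling of the arrays, the CoCl2 ratio in Sp1-si cells was positive for all 4 genes, from 0.10 (ID4) to 0.39 (ID1), and that in NS-si cells remained negative, from -1.43 (ID3) to -0.99 (ID1).

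The profile of the ID genes was set against all genes with limits that were chosen after the ID values were seen. A log2 CoCl2 ratio of -0.7 or lower in NS-si cells was found for 1014 of the 14280 genes, or 7.1%. Of these, 98 lay within 0.2 of 0 in Sp1-si cells, which is 9.66% of the lowered genes and 0.686% of all. All 4 ID genes are among these 98, and this is a description of where the limits were put.

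**Figure D2:**
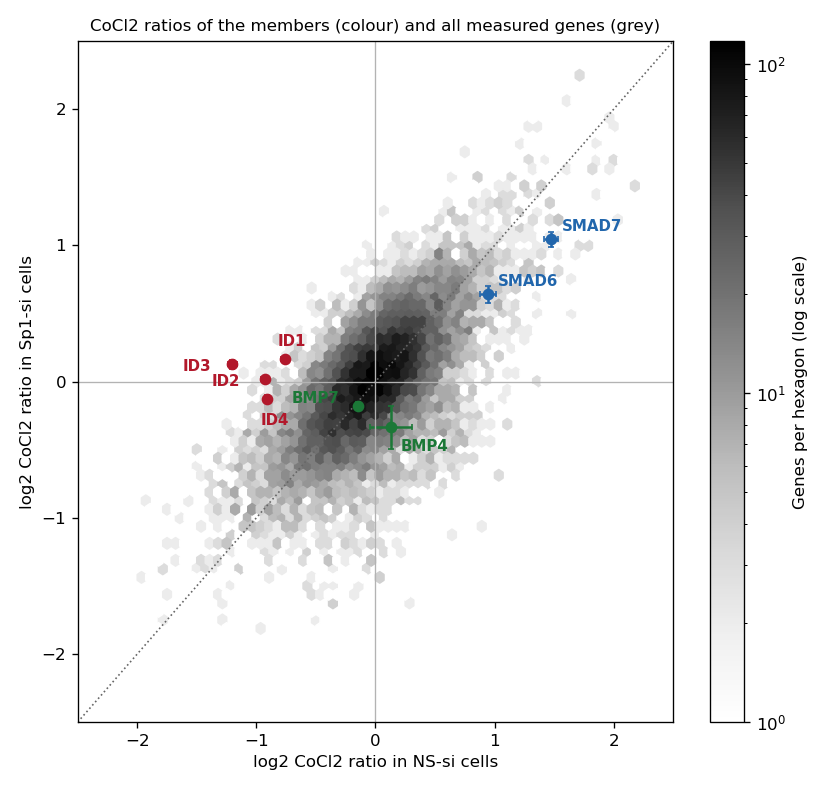
Log2 CoCl2 ratio in NS-si cells (horizontal) against that in Sp1-si cells (vertical). Hexagons count genes well above background on all 4 arrays, coloured points are the 8 members that were so, bars are the spot SD, the dotted line marks equal ratios, and genes beyond 2.5 on either axis are not drawn. The ID genes lie at -1.20 to -0.76 on the horizontal axis and within 0.17 of 0 on the vertical, above the dotted line, while SMAD6 and SMAD7 lie right of and above 0 on both.

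SMAD7, which blocks BMP and TGF-β receptors alike, had signals of 115 without and 274 with CoCl2 in control cells, and 207 without and 499 with CoCl2 in Sp1-silenced cells. Both CoCl2 arrays were above both arrays without CoCl2. The level with CoCl2 was 2.79-fold higher in NS-si cells (log2 ratio 1.48, spot SD 0.059) and 2.06-fold higher in Sp1-si cells (1.05, spot SD 0.056). The second ratio was under 2-fold in the authors' value table (0.99) and after a normexp background correction, chosen after the data were seen (0.87).

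SMAD6, which acts mainly on BMP receptors, had signals of 83.6 without and 138 with CoCl2 in control cells, and 185 without and 337 with CoCl2 in Sp1-silenced cells. Here both Sp1-si arrays were above both NS-si arrays. The log2 CoCl2 ratios were 0.94 in control and 0.64 in Sp1-silenced cells, with spot SDs of 0.066 and 0.062, and stayed under 2-fold. Sp1-si cells had a 2.30-fold higher level than NS-si cells without CoCl2 (log2 ratio 1.20) and a 1.86-fold higher level with it (0.90). After the normexp correction the first of these ratios was 0.86 and no longer past 2-fold. For SMAD7 these ratios of Sp1-silenced to control cells were 0.90 without and 0.47 with CoCl2 on the log2 scale. The differences between the CoCl2 ratios of Sp1-silenced and control cells were -0.30 for SMAD6 and -0.43 for SMAD7, with spot SDs of 0.088 and 0.081. Both turned positive without scaling of the arrays, at 0.15 and 0.02.

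In the counts, 1 member (SMAD7) was higher by 2-fold with CoCl2 in NS-si cells, where 4.75% of 15126 genes were higher, and 1 member (ID3) was lower, where 3.96% were. In Sp1-si cells 1 member (SMAD7) was higher, against 3.9% of genes, and 0 were lower, against 4.77%. At 1.5-fold, 2 members were higher in NS-si cells (SMAD6 and SMAD7) and 4 were lower (the ID genes), against 11.7% and 10.7% of genes. The median log2 CoCl2 ratio in NS-si cells was -0.92 for the ID genes and -0.45 over the 8 members above background on all arrays, beside 0.0016 over all genes. In Sp1-si cells it was 0.07 for both sets of members, beside -0.00014.

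BMP7, a ligand known from kidney and reproductive tract development, was the member that differed most between Sp1-si and NS-si cells. The brightest of its 3 probes, A_23_P68487, had signals of 3000.5 without and 2324 with CoCl2 in control cells, and 7628 without and 7861 with CoCl2 in Sp1-silenced cells. A_24_P91566 had 90.6, 89.2, 286 and 304, and A_23_P154643 had 74.7, 57.1, 647 and 608 in the same order. On all 3 probes, both Sp1-si arrays were above both NS-si arrays, with or without CoCl2.

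The size of this BMP7 ratio depended on the probe. Without CoCl2, Sp1-si cells had a 2.64-fold (A_23_P68487), 3.28-fold (A_24_P91566) or 8.99-fold (A_23_P154643) higher level, with log2 ratios of 1.40, 1.71 and 3.17 and spot SDs of 0.025, 0.065 and 0.061. With CoCl2 the log2 ratios were 1.36, 1.37 and 3.02. After the normexp correction these became 1.37, 1.28 and 2.55 without CoCl2, and 1.34, 0.83 and 2.23 with it, so that A_24_P91566 fell under 2-fold with CoCl2. The probes thus differed from each other by more than the spot SD. CoCl2 itself made little difference to BMP7, with log2 ratios of -0.16 to 0.20 in NS-si and -0.31 to -0.13 in Sp1-si cells.

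BMP4, the closest relative of BMP2, was dim, with signals of 15.9 without and 14.9 with CoCl2 in control cells, and 35.0 without and 32.4 with CoCl2 in Sp1-silenced cells. As with BMP7, the Sp1-si arrays were above the NS-si arrays. The log2 ratio of Sp1-silenced to control cells was 1.19 without (spot SD 0.18) and 0.73 with CoCl2 (0.17). The normexp correction lowered these to 0.40 and -0.05, so that the direction with CoCl2 was lost. The log2 CoCl2 ratio of BMP4 was 0.13 in control and -0.33 in Sp1-silenced cells.

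BMP2 had signals of 1.58 without and 1.45 with CoCl2 in control cells, and of 1.40 and 2.16 in Sp1-silenced cells. None was well above background, so no ratio is given. NOG had signals of 11.1 without and 9.18 with CoCl2 in control cells, where it was well above background, and of 7.92 and 6.84 in Sp1-silenced cells, where it was not. Its level was at least 1.35-fold higher in NS-si than in Sp1-si cells, and at least 1.18-fold higher with CoCl2. Such a bound takes the dim side as the higher of its own signal and the lowest signal well above background on that array. The spot SD at this brightness, 0.35 and 0.34 on the log2 scale, is close to or above the size of these bounds, and after the normexp correction the log2 ratio without CoCl2 was 0.06.

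Counted by its brightest probe, a member was higher by 2-fold in Sp1-silenced than in control cells without CoCl2 in 3 cases (BMP4, BMP7 and SMAD6), against 6.87% of 15205 genes, and lower in 1 case (ID3), against 6.62%. With CoCl2, 1 member (BMP7) was higher, against 7.62% of genes, and 0 were lower, against 9.04%. The median log2 ratio over the 8 members was 0.34 without and 0.66 with CoCl2, beside -0.010 and -0.014 over all genes.

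**Figure D3:**
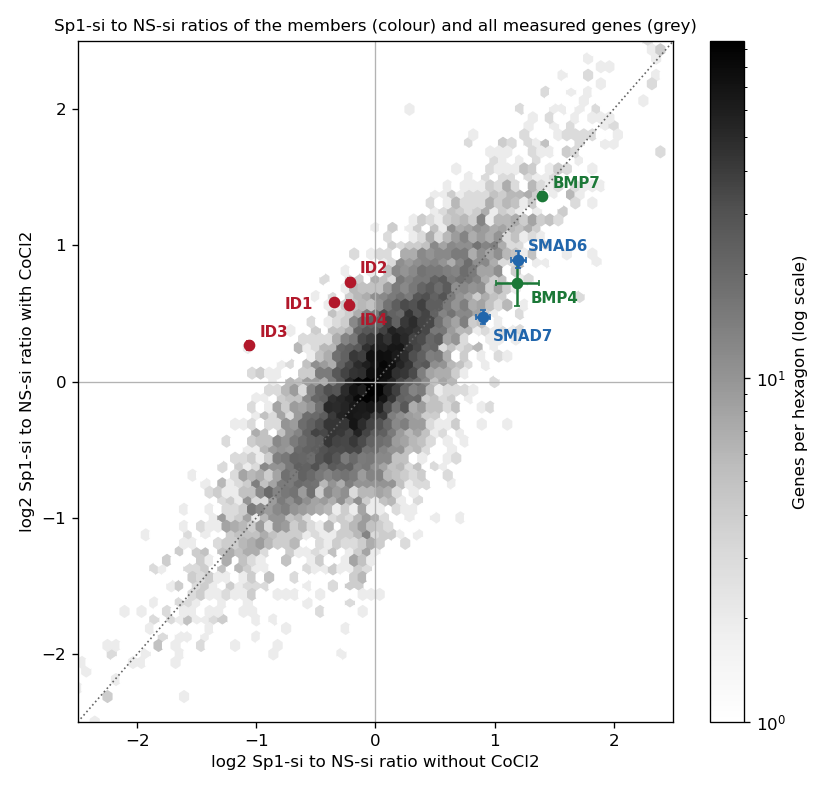
Log2 ratio of Sp1-silenced to control cells without CoCl2 (horizontal) against the same ratio with CoCl2 (vertical), drawn as in the plot of CoCl2 ratios. The ID genes lie left of 0 and above it, at 0.27 to 0.73 on the vertical axis, and BMP7, BMP4, SMAD6 and SMAD7 lie right of and above 0 on both.

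For A_23_P154643, the member probe whose level ranged most over the arrays, the 5 nearest genes were sought among 20923 probes above background on all 4 arrays, by the distance between centred log2 profiles over these 4 arrays. They were DOCK11 (0.158), MPP1 (0.191), AMOT (0.228), SLC22A23 (0.253) and FOXQ1 (0.265). Their log2 ratios of Sp1-silenced to control cells without CoCl2 were 2.84 (FOXQ1) to 3.24 (DOCK11), and with CoCl2 2.83 (SLC22A23) to 3.32 (AMOT). Profiles over 4 points are easily alike, and nothing further is read from this.

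Of 60 other genes of the BMP pathway, 59 were on the array, of which 45 passed the background call on every array and 7 on none. The ligand BMP6 moved against BMP7. Its signals were 751 without and 1289 with CoCl2 in control cells, and 190 without and 595 with CoCl2 in Sp1-silenced cells. BMP6 was thus higher with CoCl2 in both kinds of cells, with log2 ratios of 1.004 and 1.42, and lower in Sp1-si cells, at -1.93 without and -1.51 with CoCl2. Of the other ligands, BMP8B was lower in CoCl2-treated Sp1-silenced than in CoCl2-treated control cells by its brightest probe (log2 ratio -1.10), whereas its 2 dimmer probes gave 1.02 and 1.31. BMP10 was well above background on the Sp1-si → CoCl2 array alone, at least 1.57-fold above NS-si → CoCl2 cells.

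Among the 11 receptors, BMPR1B, a type I receptor, was lower with CoCl2 in both NS-si (log2 ratio -1.03) and Sp1-si cells (-1.92) by its brightest probe, while A_32_P24939, also above background on all arrays, gave -0.68 and -0.71. ACVR2B, a type II receptor, had 0.13 in NS-si cells and was lower with CoCl2 in Sp1-si cells (-1.08). Of its other probes, A_23_P109950 gave -1.13 in Sp1-si cells and A_32_P134209 gave -0.12. The co-receptor endoglin (ENG) was lower in Sp1-si cells, at -1.28 without and -1.31 with CoCl2. Of the 10 signalling SMADs and regulators, 1 passed 2-fold in any comparison, the repressor SKIL, which was higher with CoCl2 in Sp1-si cells (1.18, beside 0.66 in NS-si cells). The SMADs that the receptors phosphorylate did not move together. SMAD1 had log2 CoCl2 ratios of -0.81 and -0.999 in control and Sp1-silenced cells by its brightest probe, and -0.68 and -0.48 by its other. SMAD5 had -0.22 and -0.98, whereas SMAD9 was higher with CoCl2 in both, at 0.96 and 0.74.

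Antagonists went both ways. SOSTDC1, a secreted BMP and Wnt inhibitor, was lower with CoCl2 in both kinds of cells, at -1.83 and -2.17. GREM1 reached 77.2 in control cells without CoCl2 and was not well above background elsewhere. It was at least 11.1-fold lower in Sp1-silenced cells and at least 9.52-fold lower in control cells with CoCl2. Both bounds rest on the reading of 1 spot on the NS-si array, and no other probe of GREM1 was there to check it. BAMBI, a decoy receptor that BMP signalling induces, was higher in Sp1-silenced than in control cells (1.30 without and 0.95 with CoCl2), as was the activin and BMP binder FSTL3 (1.04 and 1.07). FST and SOST were close to background. FST was at least 1.31-fold higher in Sp1-silenced than in control cells and at least 1.46-fold with CoCl2, and SOST at least 1.86-fold lower in CoCl2-treated Sp1-silenced than in CoCl2-treated control cells, with a log2 CoCl2 ratio of 1.08 in NS-si cells.

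Of the 12 other BMP targets, the homeobox genes MSX1 and MSX2 were higher in Sp1-si cells. MSX1 had signals of 302 without and 175 with CoCl2 in control cells, and 902 without and 919 with CoCl2 in Sp1-silenced cells, a level 3.10-fold higher in Sp1-silenced than in control cells without CoCl2 and 3.999-fold higher with it. MSX2 had 234, 152, 503 and 463 in that order, with log2 ratios of 1.16 and 1.21 between these cells. The second probe of each of these genes was also past 2-fold in both comparisons.

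DLX3, also a homeobox gene, had 2.58 and 2.20 by its brightest probe but -0.11 and -0.47 by its other. The Notch and BMP target HEY1 was lower in Sp1-si cells without CoCl2 (-1.79) and had -0.65 with it, and its CoCl2 ratios differed by 1.14 in the direction seen for the ID genes. RUNX2, the osteoblast regulator, was dim and had -1.10 (spot SD 0.24) without CoCl2. TBX3 and ATOH8 were each above background on 1 array. TBX3 was at least 1.19-fold higher in Sp1-silenced than in control cells, and ATOH8 at least 1.09-fold lower in CoCl2-treated Sp1-silenced than in CoCl2-treated control cells.

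Of the 59 genes, 49 could be compared with CoCl2 in NS-si cells, where 2 were higher and 3 lower by 2-fold (4.75% and 3.96% of all genes), and 49 in Sp1-si cells, where 2 were higher and 6 lower (3.9% and 4.77%). Between Sp1-si and NS-si cells, 7 of 49 were higher and 5 lower without CoCl2 (6.87% and 6.62% of all genes), and 6 of 50 higher and 5 lower with it (7.62% and 9.04%). These counts rest on measured ratios and include FST, TBX3, BMP10, SOST and ATOH8, for which a bound under 2-fold or none could be set in at least 1 comparison. The difference of the CoCl2 ratios passed 2-fold upwards for HEY1 and downwards for ACVR2B, of 45 genes compared. The medians over the 45 genes above background on every array were 0.01, 0.08, 0.10, 0.13 and 0.03 in these 5 comparisons. The E proteins that ID proteins bind are TCF3, TCF4 and TCF12. TCF3 was higher in Sp1-silenced than in control cells by its brightest probe (1.31 without and 1.11 with CoCl2) and had 0.65 and 0.67 by its other. TCF12 had 0.45 and 0.79, and TCF4 was not above background on any array.

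**Figure D4:**
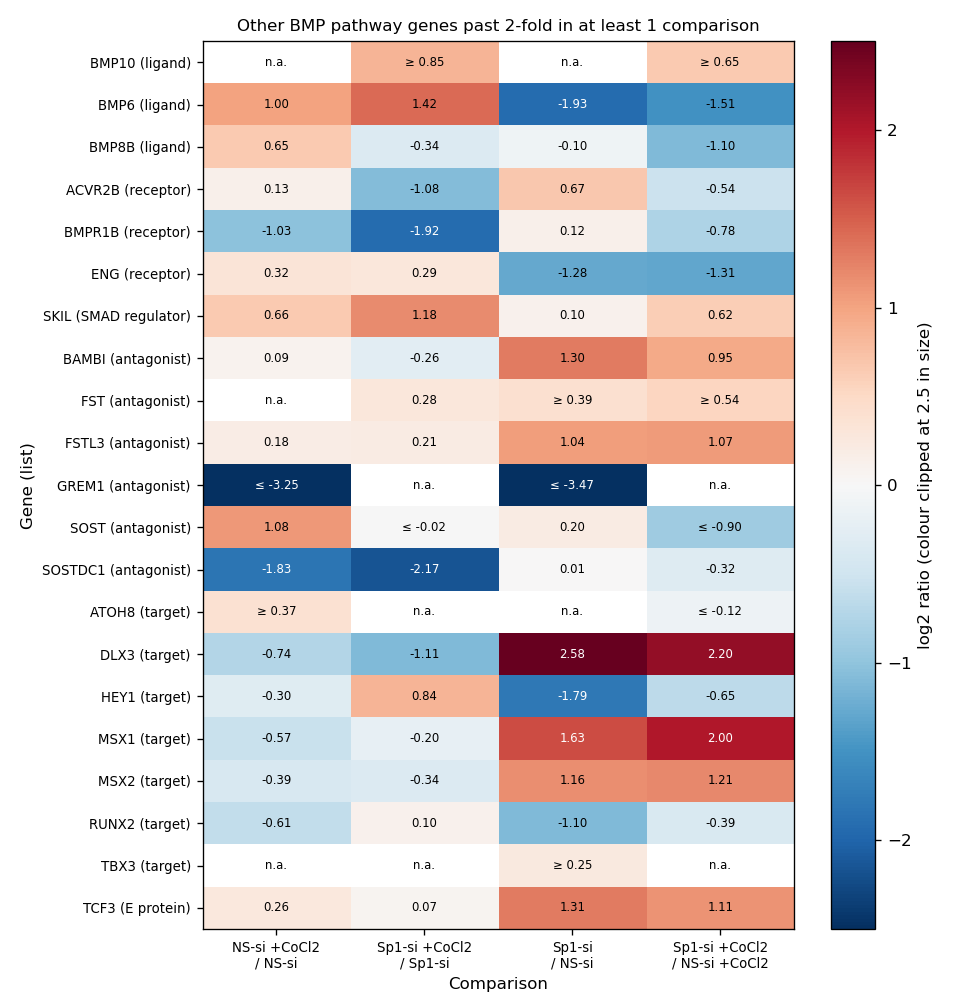
Log2 ratios of other BMP pathway genes and E proteins whose brightest probe passed 2-fold in at least 1 of the 4 comparisons (rows, with the list of each gene) in each comparison (columns). Colour and number give the log2 ratio, ≥ or ≤ marks a bound where 1 array was not well above background, and n.a. stands where neither array was or where no bound could be set. BMP6 and SOSTDC1 are among the genes that keep their sign across both CoCl2 columns. MSX1, MSX2, DLX3 and ENG are among those that keep it across both columns that compare Sp1-si with NS-si.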

How the data were processed

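The authors deposited spot intensities as Agilent Feature Extraction 10.5.1.1 (protocol GE1_105_Dec08, array annotation on hg18) wrote them, after background subtraction and detrending, and were not normalized between arrays. A value table deposited by the authors held the same signals scaled per array and was used as an alternative. The study's text names no normalization.

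The main values were log2 processed signals minus the 75th percentile of each array, without outlier spots. A probe was well above background when at least 50% of its spots were. Symbols came from RefSeq accessions and no gene coordinates were transferred between builds. Named genes were the 10 members with all probes, SP1, and genes of 6 pathway lists past 2-fold in a comparison. From these lists SMAD1, SMAD5, SMAD9, TCF4 and TCF12 were also named without passing it. Members and lists were chosen with earlier results of these data known. Each condition had 1 array, so that nothing was tested, and precision is limited by this number of arrays. Alternatives covered scaling, background, dim signals, outliers, probe choice and threshold. The counting was tested on simulated data with little noise, planted changes larger than the limit, and every probe taken as well above background. Its handling of dim signals was therefore not tested. Python 3.11.15, numpy 2.4.6, pandas 2.3.3, matplotlib 3.10.9, R 4.3.3 and limma 3.58.1 were used. Some genes counted in the lists are not reported here by name.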

Additional observations from a re-analysis of the deposited data

Results flagged for a closer look

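The probes below had CoCl2 ratios of opposite sign in NS-si and Sp1-si cells, each larger than 2 spot SDs, and the difference was not tested because each condition had 1 array. ID1 was lower with CoCl2 in NS-si cells and slightly higher in Sp1-si cells, a difference of 0.93 on the log2 scale. ID3 showed the same with a difference of 1.33. BMP7 went the other way on 1 of its 3 probes, A_24_P91566, with a difference of -0.34, which became 0.11 without scaling of the arrays.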

How the results depend on the processing

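No paired analysis was possible because each condition had 1 array. Of 472 ratios of member probes, recomputed under 8 alternatives, 305 stayed within 1 spot SD of the value given, 167 moved further, and no ratio past 2-fold changed sign. Keeping outlier spots shifted the median of all probes by only -0.0035 to 0.0013, and the floor on dim signals could move NOG alone. Most ratios under these alternatives therefore had to stay within 1 spot SD. The CoCl2 ratio in NS-si cells ranged from -0.99 to -0.76 for ID1, from -1.43 to -1.17 for ID3 and from -1.13 to -0.90 for ID4. For ID2 it ranged from -1.16 to -0.91 on the brighter probe and from -1.29 to -1.05 on the other. In Sp1-si cells the CoCl2 ratio changed sign for ID4 (0.10) and for the dimmer ID2 probe (0.12) without scaling. It also did so for the brighter ID2 probe (-0.04 each) in the authors' table and under quantile normalization.

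Counts of members past 2-fold moved as follows. With CoCl2 in NS-si cells, 2 became 3 in the authors' table, where the brighter ID2 probe reached -1.01, 4 without scaling and 6 at 1.5-fold. With CoCl2 in Sp1-si cells, 1 (SMAD7) became 0 in the authors' table and after the normexp correction, and 2 at 1.5-fold. Between Sp1-si and NS-si cells without CoCl2, 4 became 2 after normexp (BMP4 and SMAD6 lost) and 5 at 1.5-fold. Between these cells with CoCl2, 1 became 2 under median scaling, 4 without scaling and 5 at 1.5-fold. Of the latter 5, 4 were higher and 1, NOG, was lower. NOG was counted on its measured log2 ratio (-0.82), although its bound was only 1.18-fold. For the difference of the CoCl2 ratios, 1 became 2 under quantile normalization, 3 under median scaling, 4 without scaling and 4 at 1.5-fold. Leaving out the scaling shifted the median of all probes by -0.23, 0.22, -0.05 and 0.40 in the 4 comparisons and by 0.45 in the difference. The planned normexp correction of mean signals was not run. Median signals took their place, a choice made after seeing the data. Signal over background limits BMP2, BMP4 and NOG most, and the normexp correction also moved SMAD6, SMAD7 and the dimmer BMP7 probes.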
